A study of Musculus with 2 samples.

Results

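The interferon-induced genes described here are a list of 31 mouse genes that cells switch on when they sense an interferon. The members were taken by gene symbol from the list, 30 of the 31 are among the 32245 gene symbols of the deposited matrices, and the remaining one, Mx1, was not analysed here. Their transcripts were counted cell by cell (10x Genomics) in the stromal vascular fraction, the non-adipocyte cells, of subcutaneous white adipose tissue (sWAT). The control group is 1 library of genotype WT, and the LPCAT3-AKO group is 1 library whose genotype is given as LPCAT3 knockout. The sample labels give mice of 5 weeks and the series text gives CD-fed mice of 2 months, so the age is not settled. The sources used here do not give what drives the deletion, what CD stands for, the strain or how many mice each library holds. Mature adipocytes were spun off before sequencing, and the targeted gene, Lpcat3, had 26.7 CPM over all kept control cells against 30.6 CPM over the LPCAT3-AKO cells, so its level in this fraction does not separate the labels.

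Interferons are secreted proteins that warn cells of infection. Type I interferons (the alpha proteins and interferon beta) and type II interferon (interferon gamma) bind separate receptors, which signal through Janus kinases to STAT proteins. For type I interferon, STAT2 and IRF9 are parts of the complex that turns on the antiviral genes. Interferon gamma is a strong inducer of IRF1 and of the large interferon-inducible GTPases. In adipose tissue the resident macrophages and the fibroblast-like progenitors of fat cells both carry interferon receptors. The list holds 15 genes of an antiviral core, among them Isg15 (a ubiquitin-like modifier), the Ifit genes (which bind foreign RNA), Rsad2 (viperin, which makes a chain-terminating nucleotide) and its neighbour Cmpk2, Oasl2 and Oas1a (of the 2',5'-oligoadenylate synthetase family), Usp18 (which removes Isg15 and damps the receptor) and Irf7 (the factor that amplifies type I interferon production). It also holds the transcription factors Irf1, Irf9 and Stat2, the GTPases of the IRG family (Iigp1, Ifi47, Igtp, Irgm1) and of the GBP family (Gbp2, Gbp3, Gbp7), the DNA-binding PYHIN proteins Ifi203 and Ifi204, the membrane restriction factors Bst2 (tetherin) and Ifitm3, and Ifi27 and Ifi27l2a.

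The control library held 111669076 UMIs (unique molecular identifiers, each standing for 1 captured transcript) over 13831 barcodes, and the LPCAT3-AKO library 119355147 UMIs over 12806 barcodes. Filters and the removal of likely doublets left 11191 cells of the control (median 8078 UMIs) and 10576 of the LPCAT3-AKO library (median 8599.5). The libraries shared 58 barcodes. Cells were sorted into classes by marker genes, none of which is an interferon-induced gene of the lists used, and each class name below stands for the cells that passed that gate; 2.64% of control and 2.92% of LPCAT3-AKO cells passed none. Adipose stem and progenitor cells (ASPCs) numbered 5638 (control) and 5786 (LPCAT3-AKO), and in the same order macrophages and monocytes 4336 and 3373, dendritic cells 257 and 227, vascular endothelial cells 190 and 200, lymphoid cells 224 and 242, and epithelial cells 107 and 249. Markers of the other cells were seen in some gates: among vascular endothelial cells 8 of 10 mural markers, and among epithelial cells 9 of 10 ASPC markers, had a UMI in at least 20% of the cells.

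Levels are given in CPM, the UMIs of a gene per 1000000 UMIs of the class, with exact Poisson 95% intervals. CPM counts molecules without regard to transcript length, so levels are compared within a gene. Ratios divide the LPCAT3-AKO by the control level, and log2 ratios are of CPM + 1. With 1 library per genotype there is no replicate and no test, and every interval covers counting error only, so differences describe these 2 libraries. A gene is called higher or lower by size alone: 20 CPM or more in 1 of the libraries (a gene that reaches it counts as assessed), a ratio of 1.5 or more in either direction, and 1 outside the ratio's exact binomial counting interval.

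The members were present above all in macrophages and monocytes. Of the 30 measured members, 24 had their highest level among the 6 classes there in the control, and again 24 in the LPCAT3-AKO library. In the control, 24 had their lowest level in epithelial cells. The 14 measured antiviral core genes summed to 2719 CPM (2701 to 2738) in control macrophages and monocytes, against 1374 CPM (1364 to 1384) in ASPCs, 826 CPM (788 to 866) in vascular endothelial cells, 545 CPM (513 to 580) in dendritic cells, 480 CPM (431 to 532) in lymphoid cells and 81.7 CPM (70.6 to 93.9) in epithelial cells. These intervals do not overlap except for those of dendritic and lymphoid cells. Ifi27 and the GTPase Iigp1 were highest in vascular endothelial cells, Iigp1 at 353 (control) and 305 CPM (LPCAT3-AKO), and Ifi27 at 197 and 212 CPM. Xaf1, which antagonises an inhibitor of apoptosis, was also highest there (121 and 140 CPM). Igtp was highest in lymphoid cells (56.7 and 52.5 CPM), and Ifi204 in ASPCs (611 and 489 CPM). The top class differed between the libraries for 2 members. Ifitm3 was highest in ASPCs in the control (2119 CPM, against 2084 CPM in macrophages and monocytes) and in macrophages and monocytes in the LPCAT3-AKO library (2333 against 2236 CPM). Ifit1 changed the other way, from macrophages and monocytes (273 against 233 CPM) to ASPCs (120 against 113 CPM).

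**Figure D1:**
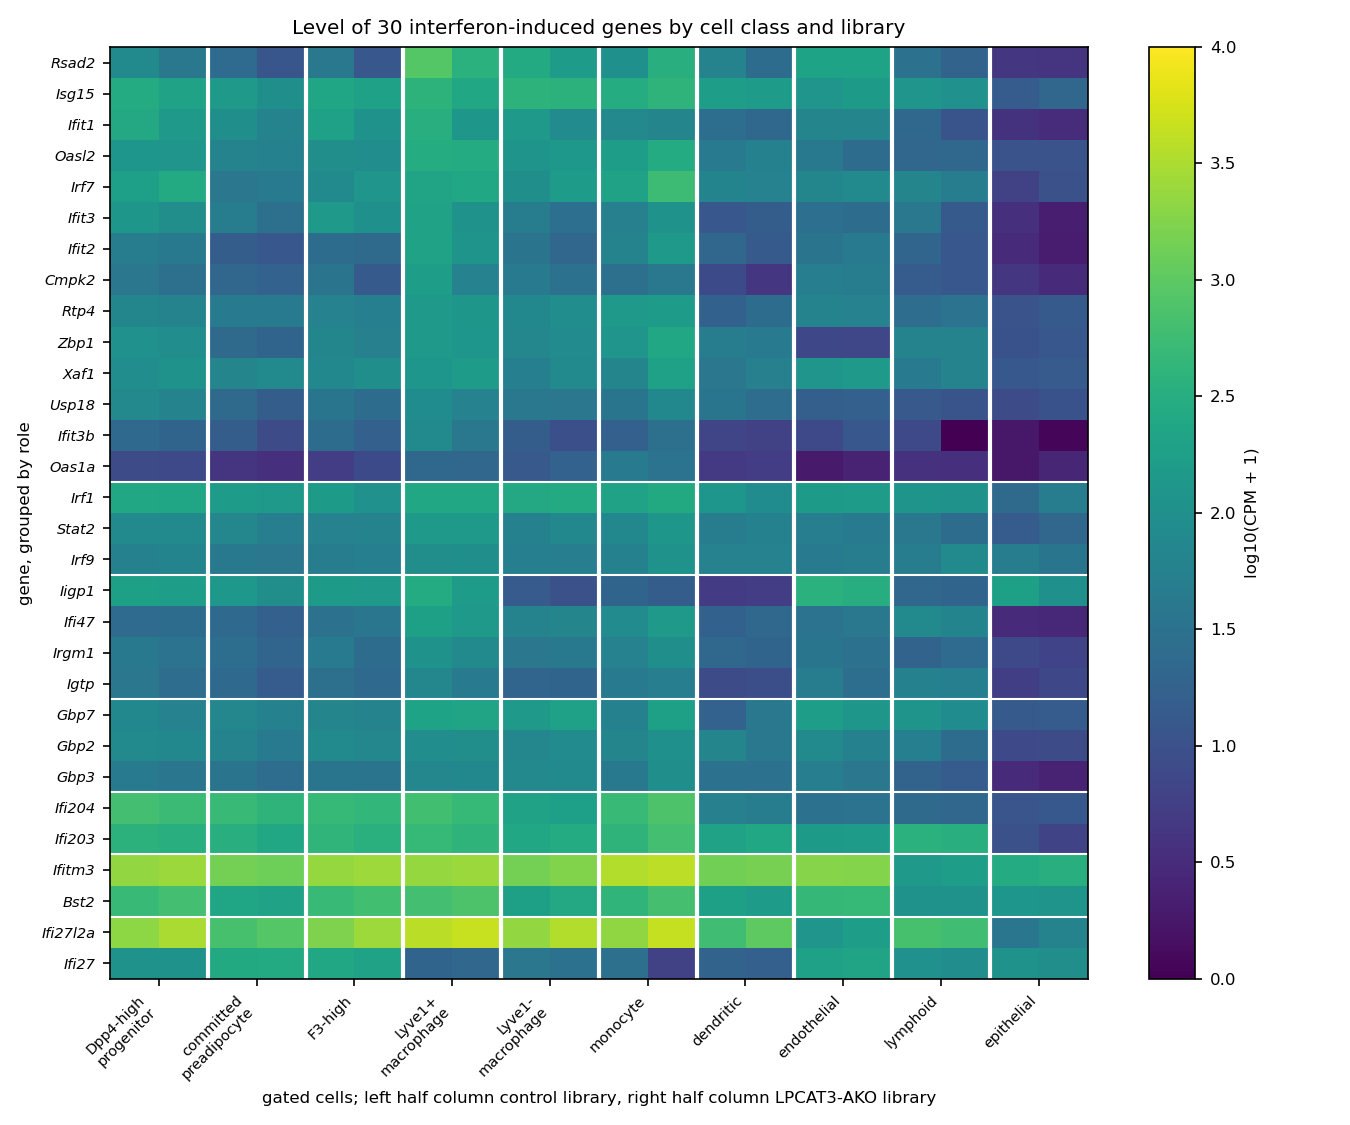
Level of each of the 30 measured members, as log10(CPM + 1), in 10 groups of gated cells, with the control library on the left and the LPCAT3-AKO library on the right of each column. Rows are grouped by role; most rows are brightest in Lyve1+ macrophages or monocytes, while Iigp1 stands out in endothelial cells and Ifi27 is brighter in endothelial cells and committed preadipocytes than in macrophages.

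In ASPCs, the cells that give rise to new fat cells, the LPCAT3-AKO library had less of several antiviral core genes, while no member was called higher. Of 29 assessed members 5 were called lower and 0 higher, against 0.774% and 1.35% of all assessed genes. The members and lists were chosen with earlier results of these data known. Here and below, the contrast with the share of all genes is therefore a description and no independent support. The members' median log2 ratio was -0.28, with 22 below and 7 above 0, against -0.00 for all assessed genes. Rsad2 had the lowest ratio. Its level was 71.5 CPM (69.3 to 73.9) in control and 29.9 CPM (28.5 to 31.4) in LPCAT3-AKO ASPCs, a ratio of 0.418 (0.394 to 0.443). Ifit1 had 233 and 120 CPM (ratio 0.516, 0.501 to 0.532), and Ifit3 122 and 78.8 CPM (0.644, 0.619 to 0.669). Isg15 had 265 and 175 CPM (0.660, 0.643 to 0.678). The GTPase Igtp had 34.5 and 22.8 CPM (0.661, 0.614 to 0.710). All but Igtp belong to the antiviral core, whose summed level was 1374 CPM in control and 1070 CPM (1061 to 1079) in LPCAT3-AKO ASPCs (ratio 0.779, 0.770 to 0.787).

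Other core genes did not follow. Irf7 was 157 CPM in control and 212 CPM in LPCAT3-AKO ASPCs (ratio 1.35, 1.31 to 1.39), Xaf1 had 87.0 and 99.8 CPM, and Oasl2 had 115 and 104 CPM, none of them past the size rule. Ifi27l2a, a small membrane protein of the Ifi27 family, had 1862 CPM (1850 to 1873) in control and 2535 CPM (2522 to 2549) in LPCAT3-AKO ASPCs, a ratio of 1.36 (1.35 to 1.37) that also stayed below 1.5. Its relative Ifi27 had 137 and 155 CPM. The restriction factor Ifitm3 had 2119 and 2236 CPM and Bst2 473 and 525 CPM. Among the core genes short of the rule, Ifit2 (41.8 and 31.5 CPM), Cmpk2 (34.8 and 24.8 CPM), Usp18 (64.9 and 46.2 CPM), Zbp1 (91.2 and 70.3 CPM), Ifit3b (21.9 and 15.8 CPM) and Rtp4 (62.4 and 56.5 CPM) had lower values in the LPCAT3-AKO library. The factors Irf1 (234 and 200 CPM), Stat2 (78.2 and 71.1 CPM) and Irf9 (54.5 and 55.5 CPM), the PYHIN genes Ifi204 (611 and 489 CPM) and Ifi203 (374 and 309 CPM), and the GTPases Iigp1 (181 and 150 CPM), Gbp2 (74.9 and 64.7 CPM), Gbp7 (71.2 and 58.0 CPM) and Irgm1 (39.1 and 29.4 CPM) also stayed short of the rule, as did Gbp3 (40.3 and 33.1 CPM) and Ifi47 (24.3 and 23.6 CPM). The 7 GTPases together had 465 and 382 CPM (ratio 0.821, 0.806 to 0.836). Oas1a, at 6.65 and 5.69 CPM, was too low to be assessed.

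The ASPC states differed in this pattern. Dpp4-high interstitial progenitors, the least committed state, made up 4302 control and 3777 LPCAT3-AKO cells, and Icam1/Col15a1-high committed preadipocytes 863 and 1435 cells. The committed preadipocytes had the lower core level in either library, 613 and 490 CPM, against 1519 and 1289 CPM in the Dpp4-high progenitors, and they were 15.3% of the ASPCs in the control against 24.8% in the LPCAT3-AKO library. With the states weighted alike in both libraries, only Ifit1 and Rsad2 of the 5 genes were still called lower, and Irf7 was called higher. Within the Dpp4-high progenitors 2 members were called lower, Ifit1 (258 and 143 CPM) and Rsad2 (81.3 and 38.7 CPM), and 2 were called higher, Irf7 (183 and 282 CPM) and Ifi27l2a (2068 and 3110 CPM). The background there was 0.741% lower and 0.893% higher. Within the committed preadipocytes 5 were called lower (Ifit1, Ifit3, Rsad2, Usp18 and Igtp) and 0 higher, against 1.28% and 1.31% of all genes. In the 189 control and 251 LPCAT3-AKO F3-high cells 4 were called lower (Ifit1, Rsad2, Cmpk2 and Irgm1) and 2 higher (Irf7 and Ifi27l2a), against 3.18% and 2.56%. Ifit1 and Rsad2 were thus called lower in each of the 3 states, and Irf7 and Ifi27l2a higher in 2 of them.

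In macrophages and monocytes the Ifit genes, Rsad2 and Cmpk2 were lower in the LPCAT3-AKO library. Of 29 assessed members 8 were called lower and 0 higher, against 0.487% and 1.21% of all genes, with a median log2 ratio of -0.12 (18 below and 11 above 0) against 0.03 for all genes. Cmpk2, a mitochondrial nucleotide kinase whose gene lies beside Rsad2, had 129 CPM (125 to 133) in control and 48.6 CPM (46.1 to 51.1) in LPCAT3-AKO cells, a ratio of 0.376 (0.354 to 0.400). Ifit1 had 273 and 113 CPM (0.415, 0.399 to 0.432), and Rsad2 698 and 292 CPM (0.418, 0.408 to 0.429). Ifit3b had 62.4 and 29.1 CPM (0.467, 0.431 to 0.506) and Ifit3 158 and 84.7 CPM (0.537, 0.511 to 0.563). Ifit3 and Ifit3b are near-identical copies, so how their reads were split between them is uncertain. Ifit2 had 152 and 87.4 CPM (0.575, 0.548 to 0.604). The GTPases Iigp1 (203 and 106 CPM, 0.521, 0.499 to 0.544) and Igtp (55.9 and 36.8 CPM, 0.657, 0.609 to 0.709) were also called lower.

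The remaining members did not pass the rule in these cells. Irf7 had 181 and 240 CPM (ratio 1.32, 1.28 to 1.37), Xaf1 104 and 134 CPM, and Ifi27l2a 3283 CPM (3262 to 3303) and 4183 CPM (4160 to 4206), a ratio of 1.27. Isg15 had 386 and 293 CPM and Usp18 74.0 and 52.4 CPM, both short of the rule, and Oasl2, Rtp4 and Zbp1 had ratios of 0.987 to 0.993. Among the GTPases, Gbp7 had 187 and 205 CPM, Gbp2 86.4 and 89.8 CPM, Gbp3 71.8 and 75.3 CPM, Irgm1 88.0 and 69.4 CPM, and Ifi47 150 and 119 CPM. The factors Irf1 (253 and 259 CPM), Stat2 (118 and 120 CPM) and Irf9 (81.5 and 83.0 CPM) were alike in both libraries to within a ratio of 1.03. Bst2 had 502 and 595 CPM, Ifitm3 2084 and 2333 CPM, Ifi204 493 and 406 CPM, Ifi203 405 and 371 CPM, and Ifi27 24.9 and 22.9 CPM. Oas1a, at 18.9 and 19.9 CPM, was below the level at which a gene is assessed.

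**Figure D2:**
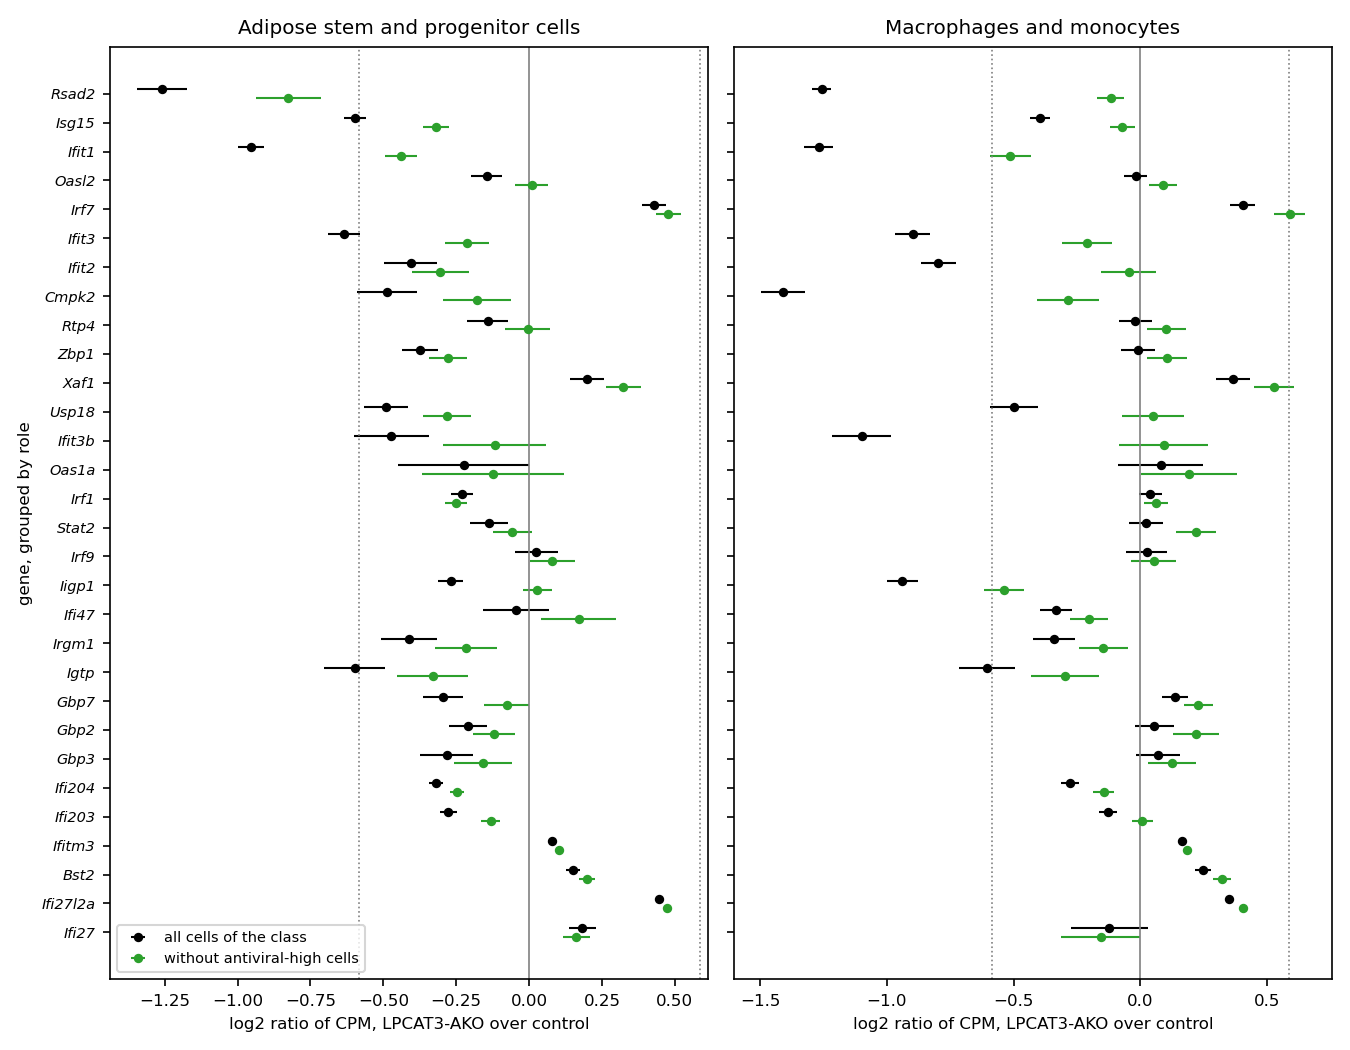
Ratio of CPM between the LPCAT3-AKO and the control library on a log2 axis for each member in ASPCs (left) and in macrophages and monocytes (right), with 95% counting intervals; dotted lines mark a ratio of 1.5 either way. Black points use all cells of the class and green points leave out the antiviral-high cells, whose removal brings the Ifit genes, Rsad2 and Cmpk2 closer to 0 while Irf7 and Ifi27l2a stay above it. The core genes, Irf7 among them, make the score that defines the removed cells, so their green points are shifted by construction.

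The macrophage states differed in which members passed the rule. In Lyve1/Folr2-high resident macrophages (3152 control and 2246 LPCAT3-AKO cells), the long-lived perivascular cells of the tissue, the core summed to 3262 and 2075 CPM (ratio 0.636, 0.628 to 0.644). There 10 of 30 assessed members were called lower, the 8 above together with Isg15 (385 and 247 CPM) and Usp18 (88.3 and 58.2 CPM), and 0 higher, against 0.875% and 1.3% of all genes. In Lyve1-negative macrophages (928 and 748 cells) the core summed to 1399 and 1303 CPM (0.932). Of 26 assessed members 4 were called lower there (Ifit1, Ifit2, Ifit3 and Rsad2) and 3 higher (Irf7, Ifi27l2a and Xaf1), against 0.499% and 1.66%. Rsad2 in this state had 281 and 155 CPM, and Ifi27l2a 2212 and 3473 CPM.

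In monocytes, the blood-derived cells of the class, most members had a higher level in the LPCAT3-AKO library. The 70 control and 192 LPCAT3-AKO monocytes had summed core levels of 1402 CPM (1285 to 1528) and 2651 CPM (2561 to 2744), a ratio of 1.89 (1.72 to 2.08). Of 29 assessed members 17 were called higher and 1 lower, against 5.39% and 4.31% of all genes, with a median log2 ratio of 0.74 against 0.01. Rsad2, called lower in the other 2 states of the class, had 101 and 336 CPM. Irf7 had 200 and 553 CPM, Xaf1 64.0 and 191 CPM, Gbp7 56.0 and 183 CPM, Zbp1, a sensor of Z-form nucleic acid, 120 and 237 CPM, and Ifi27l2a 2202 and 4395 CPM. Ifi27 was the member called lower, at 29.3 and 4.91 CPM, and Ifit1 did not pass the rule, at 74.7 and 66.3 CPM.

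The monocytes of the libraries also differed in other genes. Ly6c2, which marks classical monocytes, had 683 CPM (602 to 771) in control and 3013 CPM (2917 to 3112) in LPCAT3-AKO monocytes, while Ccr2 had 1504 and 1644 CPM and Plac8 2130 and 2637 CPM. Other monocyte subset genes did not differ as Ly6c2 did. Chil3 had 117 and 161 CPM, Nr4a1 728 and 733 CPM, Ace 90.7 and 49.9 CPM, Spn 58.7 and 40.9 CPM, and Treml4 32.0 and 34.4 CPM. For each of these genes the intervals of the libraries overlap. Lyve1 had 40.0 and 11.5 CPM, and the 8 resident macrophage markers summed to 1061 and 938 CPM. The part of monocyte subset in the difference was not tested. Monocytes made up 1.61% of the control and 5.69% of the LPCAT3-AKO cells of the class.

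**Figure D3:**
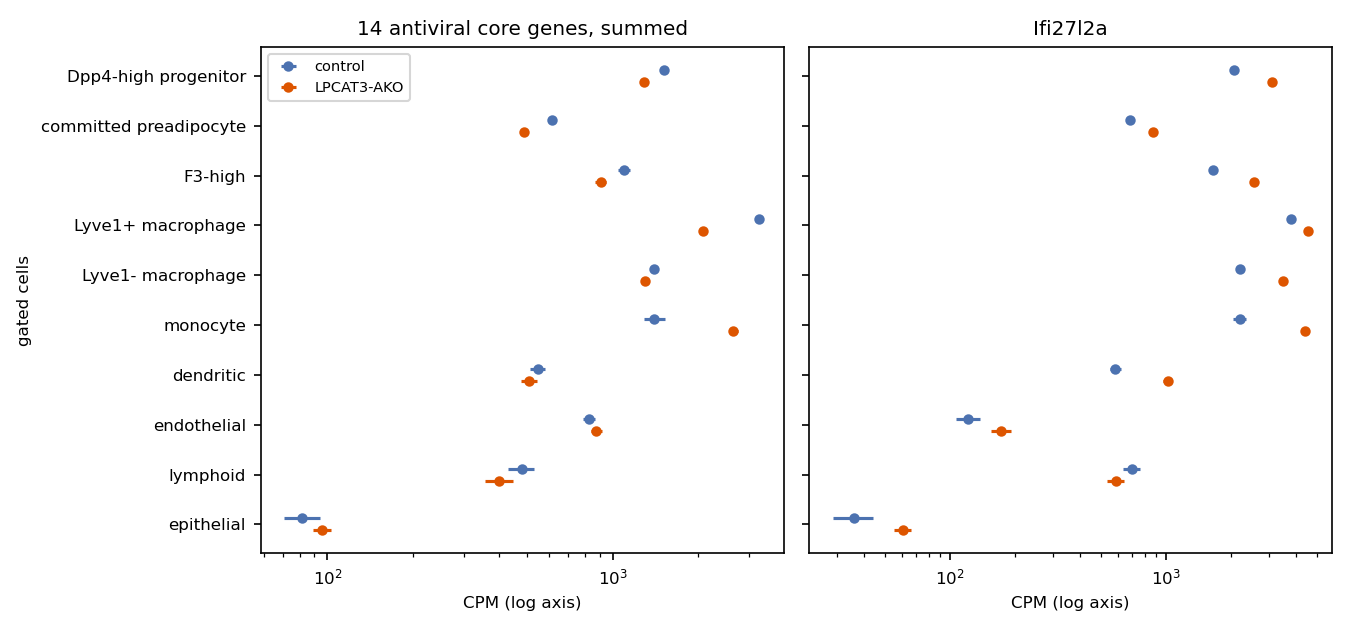
Summed level of the 14 antiviral core genes (left) and level of Ifi27l2a (right) in CPM on log axes for 10 groups of gated cells, with exact Poisson 95% intervals. The core is lower in the LPCAT3-AKO library in the 3 ASPC states, in Lyve1+ macrophages and, by less, in Lyve1- macrophages and in lymphoid cells (ratio 0.834), and higher in monocytes; in dendritic, endothelial and epithelial cells the interval of the ratio includes 1. Ifi27l2a is higher in the LPCAT3-AKO library in each group but lymphoid cells.

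In the smaller classes few members passed the rule. Dendritic cells had 2 of 22 assessed members lower, Rsad2 (59.7 and 25.3 CPM) and Gbp2 (65.0 and 38.7 CPM), and 2 higher, Ifi27l2a (583 and 1021 CPM) and Gbp7 (16.9 and 39.3 CPM), against 2.19% and 4.21%. Vascular endothelial cells had 2 of 26 lower, Oasl2 (40.9 and 24.96 CPM) and Igtp (47.1 and 26.8 CPM), and 0 higher, against 1.6% and 2.17%. Rsad2, at 211 and 207 CPM, was not called in these cells. Lymphoid cells had 2 of 24 lower, Ifit3 (39.2 and 12.5 CPM) and Gbp2 (51.3 and 24.99 CPM), and 1 higher, Irf9 (48.6 and 78.7 CPM), against 5.44% and 3.59%. Their summed core level was 480 and 400 CPM, a ratio of 0.834 (0.715 to 0.973). For the other smaller classes the interval of this ratio includes 1, at 0.934 (0.854 to 1.02) in dendritic, 1.06 (0.995 to 1.14) in vascular endothelial and 1.17 (0.998 to 1.38) in epithelial cells.

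Epithelial cells had 7 assessed members, of which Iigp1 was called lower (184 and 99.3 CPM) and Irf1 (23.3 and 48.5 CPM) and Ifi27l2a (35.8 and 60.6 CPM) higher, against 8.14% and 8.19%. In the same cells 8 of 9 immediate-early genes, which rise during tissue dissociation, were called higher, and their part in the Irf1 value was not tested. In ASPCs the immediate-early genes summed to 12683 and 10902 CPM, with 1 of 9 called lower, against 0.774% of all genes. In macrophages and monocytes they summed to 14984 and 14754 CPM, with none of 9 called. Plasmacytoid dendritic cells, known as strong producers of type I interferon, numbered only 11 and 13. Bst2, which is also one of their surface proteins, had 3625 and 3213 CPM in them, higher than in any of the 6 classes.

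Over the 10 groups of cells that share no cells with each other (6 states and 4 smaller classes), Rsad2 was called lower in 6 and higher in 1, Ifit1 lower in 5 and higher in 0, and Ifi27l2a lower in 0 and higher in 6. All 10 groups come from the same 2 libraries, so they are not independent repeats. The share of all genes called alike in as many groups was not computed. Ifi27l2a had a log2 ratio above 0 in 9 of the 10, the exception being lymphoid cells at 696 and 587 CPM. Irf7 was called higher in 4 and lower in 0. Xaf1 had a log2 ratio above 0 in all 10 and was called higher in 2.

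The core UMIs were spread unevenly over single cells. To compare cells at equal depth, each was thinned at random to 2000 UMIs and shallower cells were left out. In ASPCs the median cell held 1 core UMI in both libraries, 30.9% of control and 35.7% of LPCAT3-AKO cells held none, and the upper tails differed, with a 99th percentile of 19 UMIs for control against 13 for LPCAT3-AKO cells. The medians of macrophages and monocytes were 2 and 2 and the 99th percentiles 55 and 19. The 1% of control macrophages and monocytes with the most core UMIs held 13.5% of all core UMIs of the class, and the top 5% held 37.6%. In the LPCAT3-AKO library these shares were 7.89% and 23.2%.

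Cells with at least 10 core UMIs of 2000 are called antiviral-high here. In ASPCs they were 308 of 5412 control cells (5.69%, exact 95% interval 5.09 to 6.34) and 120 of 5608 LPCAT3-AKO cells (2.14%, 1.78 to 2.55), a ratio of 0.376 (0.302 to 0.466). The expected shares over all possible thinnings were 5.52% and 2.53%, a ratio of 0.459, and without thinning, at 0.5% of a cell's UMIs, 4.61% and 1.85% of cells qualified. Among macrophages and monocytes they were 516 of 4046 (12.8%, 11.7 to 13.8) and 251 of 3206 (7.83%, 6.92 to 8.81), a ratio of 0.614 (0.526 to 0.715), and 11.0% and 5.43% without thinning. These ratios depend on the number of UMIs asked for. At 5 or more core UMIs the shares were 16.6% and 12.8% of ASPCs (ratio 0.77) and 30.5% and 28.5% of macrophages and monocytes (0.93, 0.857 to 1.02). At 20 or more they were 0.961% and 0.410% of ASPCs (0.43), and 5.12% and 0.842% of macrophages and monocytes (0.16).

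Antiviral-high cells were 2 of 69 control monocytes (2.90%, 0.353 to 10.1) and 31 of 191 LPCAT3-AKO monocytes (16.2%, 11.3 to 22.2), the opposite order. Their expected shares over all thinnings were 4.26% and 15.1%, and the control share rests on 2 cells. In the smaller classes antiviral-high cells numbered 4 or fewer per library: 4 of 255 and 2 of 226 dendritic cells, 2 of 180 and 4 of 195 vascular endothelial cells, and 1 of 189 and 1 of 210 lymphoid cells. They were 2 of 29 (6.90%, 0.846 to 22.8) and 1 of 22 (4.55%, 0.115 to 22.8) mast cells and basophils, and 1 of 29 and 0 of 61 mural cells. Among epithelial cells there were 0 of 105 and 0 of 244, and 3 cells of the total, taken as the limit for a count of 0, would be 2.86% and 1.23%.

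**Figure D4:**
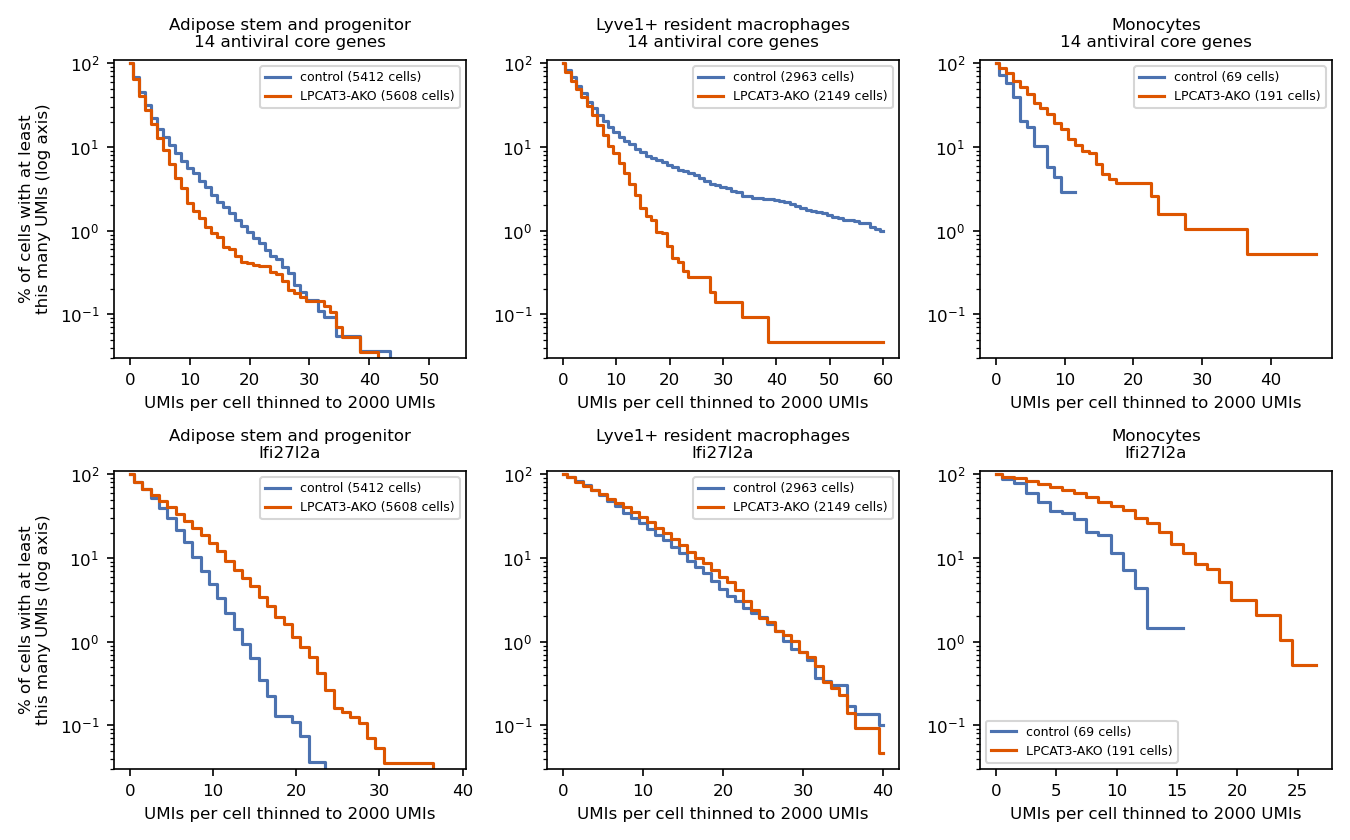
Percent of cells, on a log axis, that hold at least the number of UMIs on the x axis after thinning to 2000 UMIs, for the summed core (top) and Ifi27l2a (bottom) in ASPCs, Lyve1+ resident macrophages and monocytes. In ASPCs and resident macrophages the core curves part mainly in the tail, where the control is higher, while in monocytes the LPCAT3-AKO curve is higher; the Ifi27l2a curve of the LPCAT3-AKO library is the higher one in the upper range of ASPCs and in monocytes.

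Ifi27l2a, whose level alone exceeded that of the summed core in ASPCs, was found in most cells. After thinning, 18.1% of control and 19.6% of LPCAT3-AKO ASPCs held none, and the median was 3 UMIs in both. As for the core, the ASPC medians were equal and the upper ranges differed, but here the LPCAT3-AKO values were higher. The share of ASPCs with 10 to 19 UMIs was 4.80% for control against 13.9% for LPCAT3-AKO cells, that with 20 or more 0.111% and 1.12%, and the 90th percentiles were 8 and 11. For macrophages and monocytes the medians were 5 and 6 and the 90th percentiles 14 and 16, and in monocytes the medians were 3 and 8. The ASPC with the most Ifi27l2a held 0.166% of its UMIs (control) and 0.159% (LPCAT3-AKO). Rsad2 was seen in far fewer cells, but it was also far less abundant. ASPCs held 3752 (control) and 1627 (LPCAT3-AKO) of its UMIs, against 97641 and 138008 of Ifi27l2a. A lower level alone leaves more cells without a UMI, so shares of cells without one do not tell spread from level. No UMI of Rsad2 was left in 91.8% and 95.3% of thinned ASPCs, and 1.43% of control but 0.0936% of LPCAT3-AKO macrophages and monocytes held 20 or more of its UMIs.

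Antiviral-high cells came mostly from the most numerous state of each class. Dpp4-high progenitors were 76.3% of all control and 65.3% of all LPCAT3-AKO ASPCs, and resident macrophages 72.7% and 66.6% of their class. Of the 308 control ASPCs of this kind 279 (90.6%) were Dpp4-high progenitors, as were 103 of 120 (85.8%) in the LPCAT3-AKO library. Among macrophages and monocytes, 447 of 516 (86.6%) and 183 of 251 (72.9%) were resident macrophages, while monocytes supplied 2 and 31. Within the Dpp4-high progenitors the share of antiviral-high cells was 6.69% and 2.80%, and within resident macrophages 15.1% and 8.52%, so the lower share in the LPCAT3-AKO library was also found within the state. In both classes antiviral-high cells were deeper than the rest before thinning. Their medians were 10755 against 9462.5 UMIs in control and 9962.5 against 9245.5 in LPCAT3-AKO ASPCs. For macrophages and monocytes they were 7773 against 6595 (control) and 9570 against 8077 (LPCAT3-AKO). The LPCAT3-AKO resident macrophages had 10559 against 7708. In control ASPCs the doublet scores of antiviral-high cells were close to those of the other cells (0.0308 and 0.0256). Marker lists of macrophages and monocytes summed to 189 CPM in antiviral-high and 270 CPM in the other control ASPCs.

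Members differed in how closely they followed the other core genes from cell to cell. For each member the antiviral-high cells were redefined without its own UMIs, so the values below describe how members go together and carry no test. Only core genes enter the score, so the redefinition changes the set of cells for them alone. In control macrophages and monocytes it left 370 cells for Rsad2, against 516 for members outside the core such as Ifi27l2a. Core and other members are therefore not compared over the same cells. In control ASPCs Ifit3b was 16.5 times, Rsad2 15.8 times, Ifit3 14.6 times and Ifit1 11.3 times as high in antiviral-high as in other cells. In control macrophages and monocytes Rsad2 was 16.4 times, Cmpk2 14.6 times, Ifit2 12.8 times and Ifit1 10.6 times as high. In ASPCs Ifit2 was 2.72 times as high. The 7 GTPases had a median of 5.33 times in ASPCs, with Iigp1 at 7.45 and Igtp at 7.25, and of 3.16 times in macrophages and monocytes.

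The 6 members with a higher value in the LPCAT3-AKO library in both classes, none of them past the size rule, were spread over the lower part of this range. In control ASPCs Ifi27l2a and Ifitm3 were both 1.64 times, Irf9 1.77 times, Bst2 2.15 times, Irf7 2.26 times and Xaf1 2.94 times as high in antiviral-high cells. In control macrophages and monocytes the values were 1.60 (Ifi27l2a), 1.42 (Ifitm3), 1.34 (Irf9), 1.89 (Bst2), 3.05 (Irf7) and 2.66 times (Xaf1). Members with lower values in LPCAT3-AKO ASPCs fell in the same range, among them Ifi204 at 2.06 and Stat2 at 2.59 times. Irf1 was 0.865 and 1.10 times as high, and Ifi27 was lower in antiviral-high cells of both classes (0.619 and 0.503 times). In the LPCAT3-AKO library the order in ASPCs was similar, with Ifit3b at 25.2, Ifit3 at 21.0 and Rsad2 at 20.4 times, while in macrophages and monocytes the largest value was 7.65 times, for Ifit2.

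**Figure D5:**
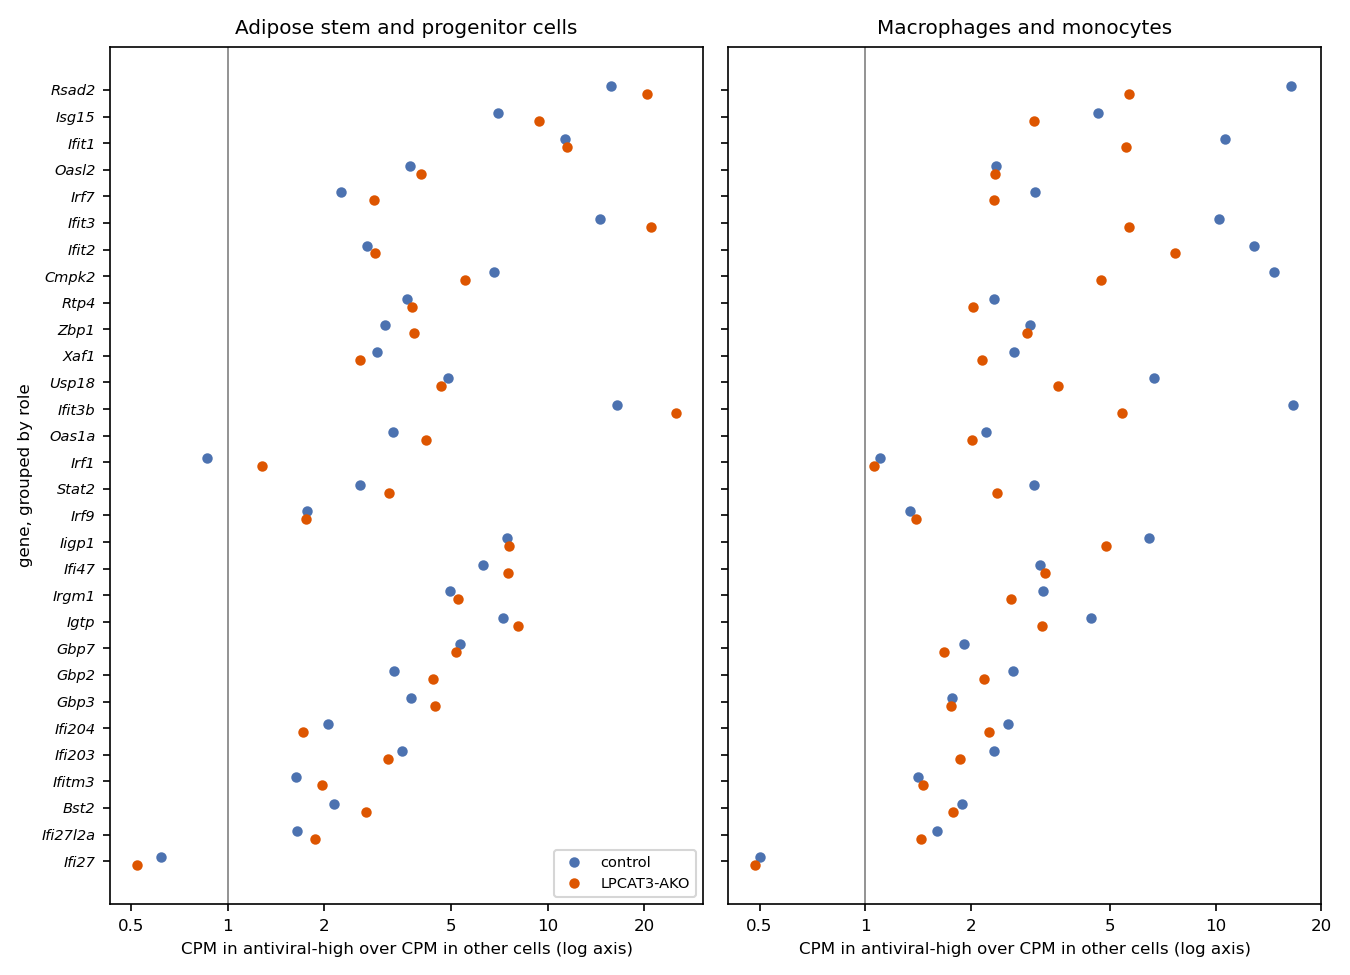
Level of each member in antiviral-high cells over that in the other cells of the same class and library, on a log axis, for ASPCs (left) and macrophages and monocytes (right), each member left out of the score that splits its cells. Rsad2, Ifit1, Ifit3 and Ifit3b lie far to the right in both classes of the control, Ifi27l2a, Ifitm3, Irf9 and Irf1 lie below 2, and Ifi27 lies below 1 in both classes and libraries.

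Leaving out the antiviral-high cells removes core UMIs by construction, and it removed most of the calls. In ASPCs 1 of 28 assessed members was then called lower, Rsad2 at 35.2 and 19.9 CPM (log2 ratio -0.80), and 0 higher, and the median log2 ratio was -0.12. Of the macrophage and monocyte calls none remained: 0 of 29 were called lower, and Rsad2, at 214 and 197 CPM, had a log2 ratio of -0.12. Cmpk2 stood at -0.28 there, Ifit3 at -0.21 and Ifit1 at -0.51. Irf7 was then called higher, at 140 and 210 CPM (0.58). It is itself part of the score, so the removal shifts its ratio by construction too, and over all cells of the class it was not called. Ifi27l2a, outside the score but also higher in antiviral-high cells, kept log2 ratios of 0.47 in ASPCs and 0.41 in macrophages and monocytes. The share of all genes called without antiviral-high cells was not computed.

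Of the receptor, sensor and brake lists, Socs1 and Socs3 were called in ASPCs and Tlr3 in macrophages and monocytes as a whole, while several sensors were called in monocytes. Of the 9 interferon receptor and kinase genes, 7 were assessed in ASPCs and 8 in macrophages and monocytes, and 0 were called in either direction. Of all genes, 0.774% were called lower and 1.35% higher in ASPCs, and 0.487% and 1.21% in macrophages and monocytes. Counts of 0 in lists this short are near those shares and are no result about the lists. Ifnar1 and Ifnar2, the chains of the type I receptor, had 36.3 and 82.2 CPM in control and 34.2 and 85.3 CPM in LPCAT3-AKO ASPCs, and 76.5 and 132 against 79.5 and 158 CPM in macrophages and monocytes. Of 15 measured signal transducers and sensors, 0 of 6 assessed were called in ASPCs. In macrophages and monocytes 1 of 14 was called, Tlr3, the endosomal sensor of double-stranded RNA, which was lower (21.6 and 13.5 CPM). Of all genes assessed there 0.487% were called lower. Within monocytes, where the members were higher, 6 of 12 assessed were called higher and 0 lower, against 5.39% and 4.31% of all genes. These were Cgas (32.0 and 69.6 CPM), Ddx58 (82.7 and 127 CPM), Ifih1 (85.3 and 142 CPM), Tlr7 (53.3 and 101 CPM), Tmem173 (34.7 and 81.9 CPM), all nucleic acid sensors or, for Tmem173 (STING), the adaptor of Cgas, and the transcription factor Irf8 (74.7 and 113 CPM). Ifih1 and Ddx58 are themselves interferon-induced genes, so their calls are not separate from those of the members. Whether the calls of Cgas, Tlr7, Tmem173 and Irf8 are separate from them was not tested. In vascular endothelial cells 1 of 8 transducers and sensors (Tmem173) and 1 of 7 receptors and kinases (Jak2) were called higher. The share of all genes there was 2.17%. Among the transducers and sensors, 1 of 7 was called higher in epithelial cells (Aim2), against 8.19% of all genes. In lymphoid cells 2 of 9 were called lower (Irf8 and Tmem173), against 5.44%. Of 6 assessed brakes of the pathway 0 were called in macrophages and monocytes. In ASPCs 2 of 6 were called higher, against 1.35% of all genes. These were Socs1 (29.7 and 74.6 CPM) and Socs3 (181 and 409 CPM), which inhibit receptor-bound Janus kinases and also respond to other cytokines. In lymphoid cells 1 of 7 brakes was called lower, Socs3 (105 and 62.5 CPM), against 5.44% of all genes. In monocytes 1 of 6 brakes was called higher, the phosphatase gene Ptpn2 (45.3 and 77.8 CPM), against 5.39%.

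Of the 21 interferon genes 16 had 0 UMIs in both libraries over all kept cells, which allows up to 0.0324 CPM (control) and 0.0298 CPM (LPCAT3-AKO) for each, from 3 counts per library. Ifnb1 had 113 and 92 UMIs, of which macrophages and monocytes held 91 and 64, in 52 of 4336 (1.20%) and 41 of 3373 (1.22%) cells. The median depths of these cells were 6413.5 and 7878 UMIs, so the shares are not at equal depth. The level there was 2.99 and 2.11 CPM (ratio 0.708, 0.506 to 0.985), too low to be assessed. In ASPCs, of greater depth, a UMI of Ifnb1 was seen in 0.177% and 0.259% of cells. Ifng, made by T and NK cells, was called lower in LPCAT3-AKO lymphoid cells, at 159 CPM (132 to 191) in control and 40.0 CPM (27.3 to 56.4) in LPCAT3-AKO cells. A UMI of it was seen in 50 of 224 (22.3%, 17.0 to 28.3) and 24 of 242 (9.92%, 6.46 to 14.4) lymphoid cells, at median depths of 2793.5 and 2861.5 UMIs, against 0.195% and 0.190% of ASPCs. In T cells it had 174 and 34.7 CPM and in NK cells 149 and 64.9 CPM.

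Of 59 other interferon-induced genes, a list without the members, 57 were measured. In ASPCs 0 of 38 assessed were called lower and 1 higher, the chemokine gene Cxcl9 (13.7 and 21.0 CPM), with a median log2 ratio of -0.21. Of all genes there 0.774% were called lower and 1.35% higher. In macrophages and monocytes 1 of 48 was called lower, Oasl1 (233 and 136 CPM), a translational inhibitor of Irf7, and 1 higher, Ms4a4c (82.6 and 133 CPM), with a median of -0.11. The shares of all genes there were 0.487% and 1.21%. In monocytes 19 of 49 were called higher and 0 lower, against 5.39% and 4.31% of all genes, with a median of 0.51; Ifih1 is counted in this list and among the sensors. Among them Cxcl10, a chemokine that draws T cells, had 74.7 and 255 CPM, and Ifi205, Phf11d and Oas2 had log2 ratios of 1.70, 1.54 and 1.45.

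Of the same list, vascular endothelial cells had 4 of 37 called lower (Ccl5, Gbp4, Ifi205 and Ifitm1) and 1 higher (Cxcl9), against 1.6% and 2.17% of all genes. Lymphoid cells had 5 of 43 lower (Ccl5, Eif2ak2, Ifi207, Ifi209 and Psmb9) and 0 higher, against 5.44% and 3.59%. Dendritic cells had 3 of 43 lower (Cd274, Cxcl10 and Parp9) and 2 higher (Dtx3l and Lgals3bp), against 2.19% and 4.21%. Epithelial cells had 3 of 20 lower (Slfn2, Tap2 and Tor3a) and 0 higher, against 8.14% and 8.19%. The median log2 ratios of the list in these 4 classes lay between -0.17 and -0.01.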

How the data were processed

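The values deposited by the authors are whole-number UMI counts, unnormalized, made with Cell Ranger 6.1.2 on the mm10 build, per the submitters' processing notes; Seurat 4.10 is also named there, and the raw counts show no step of it. No gene annotation or 10x chemistry is named in the sources used here. The members and lists were chosen with earlier results of these data known. Barcodes with at least 500 genes and at most 10% mitochondrial UMIs were kept, and those with the highest Scrublet scores (scanpy 1.11.5), 0.8% per 1000 cells, removed. A cell took the class with the highest mean scaled marker level, at 3 markers with a UMI, a score of 0.25 and a lead of 0.1; this scoring was set after seeing the matrices. States came from the same gate. Near the cut lay 158 control and 192 LPCAT3-AKO cells. Leiden clusters without interferon genes gave 97.6% of 21162 gated cells the same class. Counts were summed per class. Values are given for members past the size rule in ASPCs or in macrophages and monocytes and the 2 most abundant of each role, and for list members and the 10 genes with the highest ratio in antiviral-high cells. Alternatives (doublets, cell filters, cluster classes, depth, TMM scaling with edgeR 4.0.16, thresholds, weights of states) are given in the closing section. The rule and the thinning were tested on simulated data. Where several identifiers share a symbol, the one with the most UMIs was kept. One gene of the signalling list is not reported here. No sequences are shown.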

Additional observations from a re-analysis of the deposited data

Results flagged for a closer look

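Of the members, 6 were called lower in some groups of cells and higher in monocytes under the same contrast of LPCAT3-AKO with control. The difference between the groups was not tested, because each has 1 library per genotype. The share of all genes with such opposite calls was not computed. Since 17 of 29 assessed members were called higher in monocytes, the count of 6 by itself is no result. The following are log2 ratios. Rsad2 had -1.05 in Dpp4-high progenitors, -1.04 in committed preadipocytes, -1.71 in F3-high cells, -1.30 in resident macrophages, -0.85 in Lyve1-negative macrophages and -1.21 in dendritic cells, and 1.72 in monocytes. Ifit3 had -0.70 in committed preadipocytes, -0.88 in resident and -0.73 in Lyve1-negative macrophages and -1.57 in lymphoid cells, and 1.05 in monocytes. Ifit2 had -0.81 in resident and -0.72 in Lyve1-negative macrophages and 1.15 in monocytes. Usp18 had -0.69 in committed preadipocytes, -0.59 in resident macrophages and 1.05 in monocytes. Oasl2 had -0.69 in vascular endothelial cells and 0.80 in monocytes, and Irgm1 -0.74 in F3-high cells and 0.71 in monocytes. The monocyte values rest on 70 control cells, and Ly6c2 differed between the monocytes of the libraries (683 and 3013 CPM); its part was not tested.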

How the results depend on the processing

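Of 87 counts and shares recomputed under the alternatives, 70 stayed within 1.5 times the reported count or within its counting interval, and 17 moved; of 154 log2 ratios of named members, 49 moved beyond their counting interval and 1 changed sign, Ifit3b in macrophages and monocytes, at 0.087 without antiviral-high cells. Members called lower in ASPCs numbered 2 with the mean over cells of the per-cell share, 2 after thinning to 2000 UMIs, 2 with states weighted alike, 1 without antiviral-high cells and 1 at a ratio of 2; members called higher numbered 1 with states weighted alike. In macrophages and monocytes members called lower numbered 0 without antiviral-high cells and 4 at a ratio of 2. Members called higher numbered 1 without antiviral-high cells, Irf7, which is part of the score that defines them. In monocytes members called higher numbered 11 without antiviral-high cells and 8 at a ratio of 2. The alternatives were computed for the members only. The share of all genes called under each of them is not known, and the shares given above belong to the main rule. The ratio of antiviral-high shares was 0.77 in ASPCs and 0.93 in macrophages and monocytes at 5 UMIs of 2000, and 0.50 in ASPCs with another thinning seed. In macrophages and monocytes it was 0.16 at 20 UMIs of 2000, 0.52 at 20 UMIs of 4000 and 0.50 without thinning. In monocytes 20 UMIs of 2000 gave no ratio, since no control cell reached it. The monocyte alternatives and the expected shares over all thinnings were chosen after seeing the data. TMM scaling moved log2 ratios by -0.03 in ASPCs, -0.07 in macrophages and monocytes and 0.03 in monocytes. The depth of the small classes limits their calls. No paired analysis was possible because each genotype has 1 library.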

Other observations

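Outside the list, some genes were concentrated in antiviral-high cells of the control library, by the rule of the highest ratio of their level there to that in the other cells. In control ASPCs these were Il1rl1, Ifi44, Oasl1, Ifi206, Serpinb2, Oas3, Gbp4, Plscr2, Cd274 and Gvin1. For 8 of these genes the ratio was also above 5 in the LPCAT3-AKO library, such as Ifi44 at 11.4 and 11.8 and Cd274, the checkpoint ligand PD-L1, at 6.77 and 6.32. Il1rl1, the receptor of interleukin-33, did not follow: it had 386 CPM in antiviral-high and 29.8 CPM in other control ASPCs, but 6.29 and 8.48 CPM in the LPCAT3-AKO library. Antiviral-high ASPCs with a UMI of it numbered 81 of 308 (control) and 4 of 120 (LPCAT3-AKO). The 8 mast cell markers summed to 10.9 CPM in antiviral-high and 8.78 CPM in other control ASPCs, with 4 of the 8 at 0 in the former. Serpinb2, a protease inhibitor, had 33.0 and 3.65 CPM in the control and 0 UMIs in the LPCAT3-AKO antiviral-high ASPCs, against 0.907 CPM in its other ASPCs.

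In control macrophages and monocytes the same ranking gave Ifit1bl1, Tmem171, Apol9b, Ccl12, Slfn4, Isg20, Daxx, Oasl1, Tnfsf10 and Ifi214. Ifit1bl1, a relative of Ifit1, had 78.3 CPM in antiviral-high and 1.97 CPM in other control cells, and 52.4 and 4.48 CPM in the LPCAT3-AKO library. Ccl12, a chemokine that attracts monocytes, had 661 and 106 CPM in the control and 287 and 92.0 CPM in the LPCAT3-AKO library. The genes of both rankings were chosen for their ratio in the control library, so a smaller ratio in the LPCAT3-AKO library is no result.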
